A study of Triticum aestivum with 8 samples.

Results

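This account concerns 2559 accessible chromatin regions of bread wheat (Triticum aestivum) that carried an ATAC-seq peak in leaves, roots and axillary buds but none in shoot apices. They are called apex-lacking regions here. Peaks of the 4 tissue lists that shared at least 1 bp were merged into 221805 regions, and each region was classed by the tissues that had a peak in it. The apex-lacking regions made up 1.15% of all merged regions (95% Wilson interval 1.11 to 1.20) and 2.60% of the 98494 regions without an apex peak. They were chosen by the presence of peaks in leaf, root and bud and their absence in the apex, so their number, their widths and their distance to apex peaks are given as a description, without a test.

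The plants were of the cultivar AiKang58, raised under a 16 h light (22 °C) and 8 h dark (19 °C) cycle. Leaves, roots and shoot apices were taken from 2-week-old seedlings. Axillary buds of 1.0 to 2.0 cm were taken from 6-week-old plants that had been kept at 4 °C for 30 days, so age and cold cannot be told apart from tissue in the bud list. The labels name 2 libraries per tissue, and both libraries of a tissue point to the same deposited list. The lists hold positions only, without height, score or read count, so neither a spread between replicates nor a sequencing depth could be read from them. The shoot apex list was the longest, with 131949 peaks, while leaves had 123032, roots 119387 and axillary buds 122118. A place without a peak is a place where no peak was called, which is not the same as closed chromatin. The sources used here do not give the genome build of the lists. Genes, sequences and tissue markers at these positions were therefore not looked up, and regions are named by the coordinates of the lists, counted from 1.

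ATAC-seq uses a transposase that inserts adapters where DNA is free of nucleosomes, and its peaks commonly mark promoters, enhancers and other regulatory sequence. The shoot apex holds the apical meristem, whose dividing cells give rise to leaves, stem and axillary meristems. An axillary bud holds such an axillary meristem with young leaves around it. Leaves and roots consist for the most part of differentiated cells. Bread wheat carries 3 related subgenomes, A, B and D, with 7 chromosomes each, and the chromosomes of 1 number form a homoeologous group.

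A missing apex peak was the rarest gap among regions of 3 tissues. Of the 46220 regions with a peak in leaves, roots and buds, 2559 lacked the apex, a share of 5.54% (95% interval 5.33 to 5.75). This apex-lacking share is the measure used below. The corresponding shares were 15.3% for a missing leaf peak (7888 regions), 20.7% for a missing root peak (11395 regions) and 22.2% for a missing bud peak (12430 regions). The apex-lacking share was the lowest of the 4 in each of the 4 other list or merging settings compared. With each list cut to its 119387 widest peaks, 6.67% lacked the apex and 14.9 to 21.5% lacked 1 of the other tissues. The order of root and bud was less stable. With peaks of at least 507 bp, 29.0% lacked root and 19.9% lacked bud, and with 50% of the region covered 39.8% lacked root and 37.5% lacked bud. The apex-lacking regions used 2.20% of leaf peaks (2710), 2.24% of root peaks (2669) and 2.20% of bud peaks (2686).

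The apex-lacking regions were narrower than regions of all 4 tissues in each of the 3 tissues that had peaks. Median region width was 895 bp (quartiles 612 and 1337), against 1308 bp (900 and 2000) for regions of all 4 tissues, which also join the apex list. Within them the leaf peaks covered a median of 475 bp, against 792 bp of leaf peaks in regions of all 4 tissues. Root peaks covered 500 bp in apex-lacking regions, against 700 bp in regions of all 4 tissues. Bud peaks covered 550 bp in apex-lacking regions, against 925 bp in regions of all 4 tissues. Being narrower than regions of all 4 tissues was not particular to the apex-lacking class. Median region width was 729 bp for regions lacking leaf, 753 bp for regions lacking bud and 1050 bp for regions lacking root. The quartile boxes of the 2 classes overlapped in all 3 tissues, so width did not separate the classes region by region. Most of them were simple, since 2264 (88.5%) had exactly 1 peak in each of the 3 tissues.

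**Figure D1:**
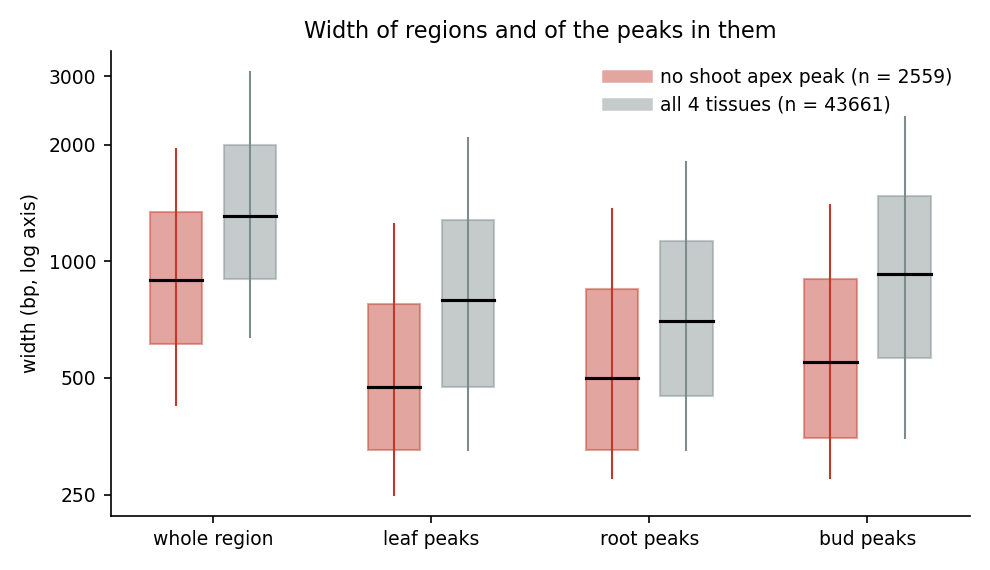
Width in bp (log axis) of whole regions and of the leaf, root and bud peaks in them, for the 2559 regions without a shoot apex peak (red) and the 43661 regions of all 4 tissues (grey). Black bars are medians, boxes the quartiles and thin lines the 10th and 90th percentiles over regions; the apex-lacking medians lie lower in every column, for example 475 bp against 792 bp for leaf peaks.

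At least 1 of the 3 tissues was usually narrow. The narrowest tissue covered a median of 325 bp in apex-lacking regions, against 525 bp for the narrowest of leaf, root and bud in regions of all 4 tissues. It covered at most 300 bp in 1076 of them (42.0%), against 8522 (19.5%) of the regions of all 4 tissues. A narrow peak was not particular to this class. The narrowest of the 3 tissues covered 201 to 250 bp in 556 of 2559 apex-lacking regions. It did so in 1904 of 7888 regions lacking leaf, 1878 of 11395 lacking root and 2546 of 12430 lacking bud. The shortest peaks in any list had 201 bp, so many of these peaks were near the minimum. No single tissue accounted for the narrow peak. Leaf alone was narrowest in 868 regions (33.9%), root alone in 831 (32.5%) and bud alone in 676 (26.4%). Bud was most often the widest, in 1036 regions (40.5%), against 789 for root and 600 for leaf. This was not particular to the class. In regions of all 4 tissues the medians were 925 bp for bud, 792 bp for leaf and 700 bp for root. Over the whole lists, median peak width was 550 bp in bud and 500 bp in leaf and in root.

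The 3 tissues also coincided less closely in apex-lacking regions. In 226 of them (8.83%, 95% interval 7.79 to 9.99) no base was covered in all 3 tissues, against 1295 (2.97%, 2.81 to 3.13) of the regions of all 4 tissues. In those 226 the outer peaks were chained by a peak of the third tissue, which was leaf in 82, root in 76 and bud in 64. In the remaining 4 each pair of tissues overlapped, at different bases. Where a common stretch existed its median was 276 bp (quartiles 216 and 400), against 455 bp (300 and 751) in regions of all 4 tissues. A short common stretch was not particular to this class. Counted over their own 3 tissues, the median was 288 bp in regions lacking leaf, 350 bp lacking root and 311 bp lacking bud. No base was common to the 3 in 4.12% of regions lacking leaf, 5.05% lacking root and 2.04% lacking bud. Of all bases in apex-lacking regions 30.2% were covered in 3 tissues, 31.6% in 2 and 38.2% in 1. In regions of all 4 tissues, counting leaf, root and bud only, the shares were 39.9%, 28.2% and 32.0%.

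Leaf and root were the most alike pair inside the apex-lacking regions. Leaf and root peaks shared 49.5% of the bases that either covered, leaf and bud 46.7%, and root and bud 44.0%. The order was the same in regions of all 4 tissues, at 58.3%, 56.1% and 51.3%. Spearman's rho of the widths over the 2559 apex-lacking regions was 0.387 for leaf and root, 0.342 for leaf and bud and 0.311 for root and bud. It was 0.584, 0.571 and 0.496 over regions of all 4 tissues. Regions are not independent replicates, and each list contributes its own depth to these values. In 152 apex-lacking regions (5.94%) the widest tissue covered at least 5 times as many bases as the narrowest. The widest tissue was root in 72 of these, bud in 50 and leaf in 30.

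The apex-lacking share fell as the peaks of the other 3 tissues became wider. Where the narrowest of leaf, root and bud covered 201 to 250 bp, 12.1% of regions lacked the apex (556 of 4605). The share was 5.60% at 401 to 500 bp, 2.05% at 701 to 1000 bp and 1.96% at 1001 to 1999 bp. At 2000 bp or more it was 1.01% (19 of 1878, 95% interval 0.649 to 1.57). The missing-leaf share fell faster, to 0.0968% at that width (2 of 2067, 0.0265 to 0.352). The apex-lacking share was thus the lowest of the 4 up to 1000 bp. At 1001 to 1999 bp its interval (1.64 to 2.34) overlapped that of the missing-leaf share (1.69%, 1.41 to 2.02). It lay above the missing-leaf share without such an overlap only at 2000 bp or more. The missing-root share stayed at 6.59% and the missing-bud share at 2.16% there. Each share rests on 1 list per tissue, and the intervals cover counting error over regions only.

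**Figure D2:**
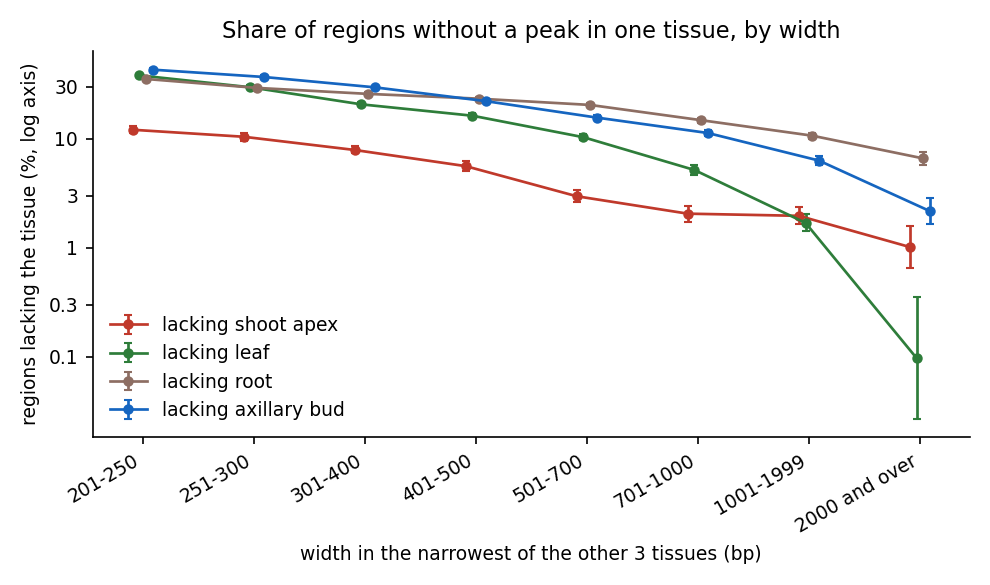
Percent of regions that lack a peak in 1 tissue (log axis) by the width in bp of the narrowest of the other 3 tissues. Points are shares and bars their 95% Wilson intervals; the red line (no apex peak) lies lowest up to 1000 bp and ends at 1.01% for 2000 bp and over, above the green line (no leaf peak) at 0.0968%.

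Apex-lacking regions with at least 2000 bp in each of leaf, root and bud numbered 19. This threshold was chosen after the values were seen. Peaks of a tissue were summed, so some regions reached it with several peaks. On 6B from 675698817 to 675704144, for example, 5 leaf peaks together covered 3600 bp. In the 19 regions the bases common to the 3 tissues ran from 500 to 7825 bp, with a median of 2429 bp. The most extreme lay on 6A from 597335073 to 597344974 (9902 bp). There 1 leaf peak covered 8375 bp, 2 root peaks 8600 bp and the bud peak all 9902 bp, with 7825 bp in common, and the nearest apex peak lay 3304 bp away. On 2D from 613340515 to 613349442 (8928 bp) leaf covered 8225 bp, root 7675 bp and bud 8325 bp, with 6895 bp in common and an apex peak at 3753 bp. In both regions the 3 tissues covered about equal numbers of bases, with 2 peaks in root, and the apex list had no peak. Of the 19 regions 17 (89.5%) lay within 20% of their chromosome's length from an end. Among the regions of all 4 tissues with at least 2000 bp in leaf, root and bud it was 1413 of 1859 (76.0%). This difference rests on only 19 apex-lacking regions and was not tested. By subgenome, 6 of the 19 lay on D, 5 on A and 8 on B chromosomes. An apex peak lay within 5000 bp of 15 of them, and within 1000 bp of 2.

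The 5 widest apex-lacking regions were of different kinds. The widest lay on 4B from 585957887 to 585968486 (10600 bp) and was a single root peak of that width, with a leaf peak of 300 bp and a bud peak of 300 bp that shared no base with each other. The regions on 6A and 2D described above came next. On 6B from 673686218 to 673694488 (8271 bp), 3 leaf peaks covered 5275 bp, 4 root peaks 2925 bp and 1 bud peak 4274 bp, but only 500 bp were common. On 1B from 548898651 to 548905721 (7071 bp) the leaf peak covered 7000 bp, 2 root peaks 3250 bp and 2 bud peaks 1425 bp. In all, 243 apex-lacking regions (9.50%) were at least 2000 bp wide and 33 (1.29%) at least 4000 bp. The shares were 25.1% and 5.04% for regions of all 4 tissues. At least 2000 bp was reached by 3.54% of regions lacking leaf, 6.39% of regions lacking bud and 13.2% of regions lacking root.

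Most apex-lacking regions lay kilobases from any apex peak. The median gap from an apex-lacking region to the nearest apex peak was 5893 bp (quartiles 1661 and 35865). A gap of at most 500 bp was found for 227 regions (8.87%), of at most 1000 bp for 430 (16.8%) and of more than 100 kb for 354 (13.8%). A missing-tissue peak within 500 bp was less common for regions lacking leaf (5.74%), root (5.32%) or bud (6.28%). The median gap to the nearest peak of the missing tissue was 5688 bp for regions lacking leaf, 7695 bp for regions lacking root and 12328 bp for regions lacking bud. These gaps also depend on how many peaks the missing tissue has and where. From the apex-lacking regions themselves, the nearest peak outside them lay at a median of 5234 bp in leaves, 4787 bp in roots and 4818 bp in buds. The apex list, the longest of the 4, was thus the farthest from these regions by the median gap, and their choice already required that no apex peak overlap them.

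**Figure D3:**
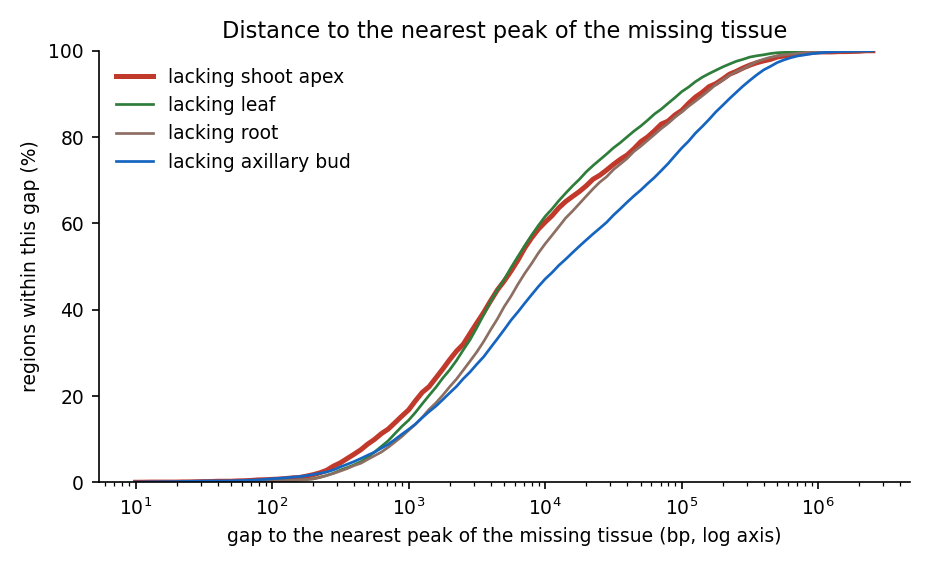
Percent of regions that have a peak of the missing tissue within a given gap in bp (log axis), for regions lacking the shoot apex (thick red), leaf (green), root (brown) and axillary bud (blue). The red curve passes 16.8% at 1000 bp and 60.3% at 10000 bp, where the blue curve is at 47.1%.

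Few regions lay at the border of the class. The smallest gaps were 4 bp on 3D (133104699 to 133105423), 13 bp on 5A (22984590 to 22987092) and 22 bp on 4B (371967862 to 371968586). Only 18 apex-lacking regions had a gap of at most 100 bp. On the other side of the border, the smallest apex overlap in a region of all 4 tissues was 24 bp, on 6D from 199625174 to 199628649. It was followed by 31 bp on 1B (491530439 to 491532033) and 68 bp on 5D (497783188 to 497784294). Only 6 of 43661 such regions had an apex overlap of at most 100 bp. A stricter demand on the apex changed the number much more. When the apex had to cover 50% of the narrowest leaf, root or bud peak, 5796 regions lacked it, a share of 12.5%.

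The regions near and far from apex peaks differed in width and place. The 227 with an apex peak within 500 bp had a median width of 875 bp, and 70.9% of them lay in the outer 20% of a chromosome at either end. The 354 with no apex peak within 100 kb were narrower, with a median of 714 bp and a leaf median of 400 bp, and 41.0% of them lay in the outer 20%. The nearest apex peak belonged to a region of all 4 tissues for 41.5% of apex-lacking regions and to a region open in the apex only for 14.2%. The nearest apex peak had a median width of 500 bp, against 525 bp for all apex peaks.

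The 5 regions farthest from an apex peak lay in the inner 60% of their chromosomes. On 5D 3 of them followed each other within 3929 bp (147798527 to 147802455), with no apex peak for 2113401 bp or more. Each had 1 peak per tissue, of 274 to 300 bp in leaf, 300 to 325 bp in root and 259 to 350 bp in bud, and 249 to 292 bp were common to the 3 tissues. The next lay on 1B from 196465122 to 196465871, with an apex peak at 1869146 bp, and on 5B from 152513419 to 152514018, with one at 1688940 bp. In these last 2 regions the narrowest peak had 225 bp, in bud on 1B and in root on 5B.

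Apex-lacking regions mostly stood alone among other classes. In the order of merged regions, 2397 had a neighbour of another class on both sides, 138 stood in 69 runs of 2 and 24 in 8 runs of 3. Of the 5118 neighbour positions, directly before and after each apex-lacking region, 170 (3.32%) held an apex-lacking region too. Adjacent pairs were thus counted from both sides. Among all merged regions the share was 1.15%, a comparison that was not tested. Neighbours with an apex peak made up 48.1%, against 55.6% of all merged regions. Another apex-lacking region lay within 10 kb of 213 regions (8.32%), and 123 (4.81%) had no merged region of any class within 100 kb. The median gap to the nearest merged region was 1390 bp, against 1493 bp for regions of all 4 tissues.

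The runs of 3 were short clusters of 2407 to 8539 bp. On 1B from 676070456 to 676076362 the middle region was wide in all 3 tissues, with 3181 bp in leaf, 2600 bp in root and 2575 bp in bud, and an apex peak lay 3176 bp from the run. On 2D from 140546612 to 140551630 the 3 regions were 758 to 993 bp wide and lay at least 66123 bp from an apex peak. On 3D from 96616231 to 96621346 they were 300 to 1289 bp wide, at least 487972 bp from an apex peak. The run on 5D described above was another, and the remaining 4 lay on 4B, 4D (2 runs) and 7A.

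Of the 13700 windows of 1 Mb with a merged region, 2091 held an apex-lacking region, and 1737 of these held 1. The window on 5B from 691000001 to 692000000 held most, with 8, beside 7 regions of all 4 tissues. It held 66 leaf, 35 root and 45 bud peaks but 14 apex peaks. Its widest apex-lacking region (691414092 to 691419644) had 2952 bp of leaf, 5553 bp of root and 566 bp of bud peaks. Bud peaks covered 236 to 571 bp in 7 of the 8 and 1012 bp in the other, against a bud median of 550 bp for all apex-lacking regions. Leaf peaks covered 432 to 2952 bp over the 8 regions.

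The window on 4B from 291000001 to 292000000 held 6 apex-lacking regions and 5 of all 4 tissues, with 22 leaf, 23 root and 23 bud peaks but 6 apex peaks. The 6 lay within 291818858 to 291837837 and had peaks of 294 to 700 bp in leaf, 218 to 589 bp in root and 225 to 336 bp in bud. The first of them was the widest in leaf and root, with 700 and 589 bp, above the medians of 475 and 500 bp for all apex-lacking regions. The first window of 1A (1 to 1000000) held 5, beside 2 of all 4 tissues. It had 42 root, 39 bud and 22 leaf peaks but 4 apex peaks. In these 3 windows the apex list was sparse as a whole, since 75 of 86, 26 of 32 and 73 of 77 merged regions there had no apex peak. Over all merged regions it was 98494 of 221805. The windows were picked for their number of apex-lacking regions, so a low apex count there is partly built in. Another 4 windows, on 2A, 2D, 3A and 3D, held 5 apex-lacking regions each.

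Along the chromosomes, the apex-lacking regions were concentrated toward both ends. There were 0.475 per Mb in the first 5% of the chromosome length and 0.604 per Mb in the last 5%, against 0.0768 to 0.132 per Mb between 20 and 60% of the length. Of all apex-lacking regions 63.4% (95% interval 61.5 to 65.2) lay in the outer 20% at either end. Regions of all 4 tissues were placed much the same at this scale, with 62.3% (61.9 to 62.8). Position was not used to choose the regions, so it was tested over the 7 homoeologous groups by exact permutation (two-sided, flipping the sign of each group's difference), and 0.0156 is the smallest p this can give. P-values were adjusted over the 5 position tests by the Benjamini-Hochberg method, and they measure spread between homoeologous groups, which are not replicates of a tissue.

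Apex-lacking regions were less distal than regions lacking leaf and more distal than regions lacking bud. Averaged over chromosomes, 63.3% of apex-lacking regions lay in the outer 20%, against 77.4% of regions lacking leaf, a difference of -14.1 ± 2.87 percentage points (SD, n = 7 groups), negative in 7 of 7 groups (exact permutation p = 0.0156, adjusted p = 0.0391). Against 48.6% of regions lacking bud the difference was 14.7 ± 4.72 points, positive in 7 of 7 groups (exact permutation p = 0.0156, adjusted p = 0.0391). Against 64.2% of regions lacking root it was -0.911 ± 4.94 points (exact permutation p = 0.641, adjusted p = 0.641). Against 62.4% of regions of all 4 tissues it was 0.944 ± 3.77 points (exact permutation p = 0.531, adjusted p = 0.641). These last 2 differences were smaller than their spread between groups. The difference from all 4 tissues was larger in the outer 10%, at 4.08 points, positive in 5 of 7 groups (exact permutation, adjusted p = 0.0781). The apex-lacking share likewise averaged 5.63% in the outer 20% and 5.43% in the inner 60%, a difference of 0.197 ± 0.830 points that was positive in 4 of 7 groups (exact permutation p = 0.563, adjusted p = 0.641).

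**Figure D4:**
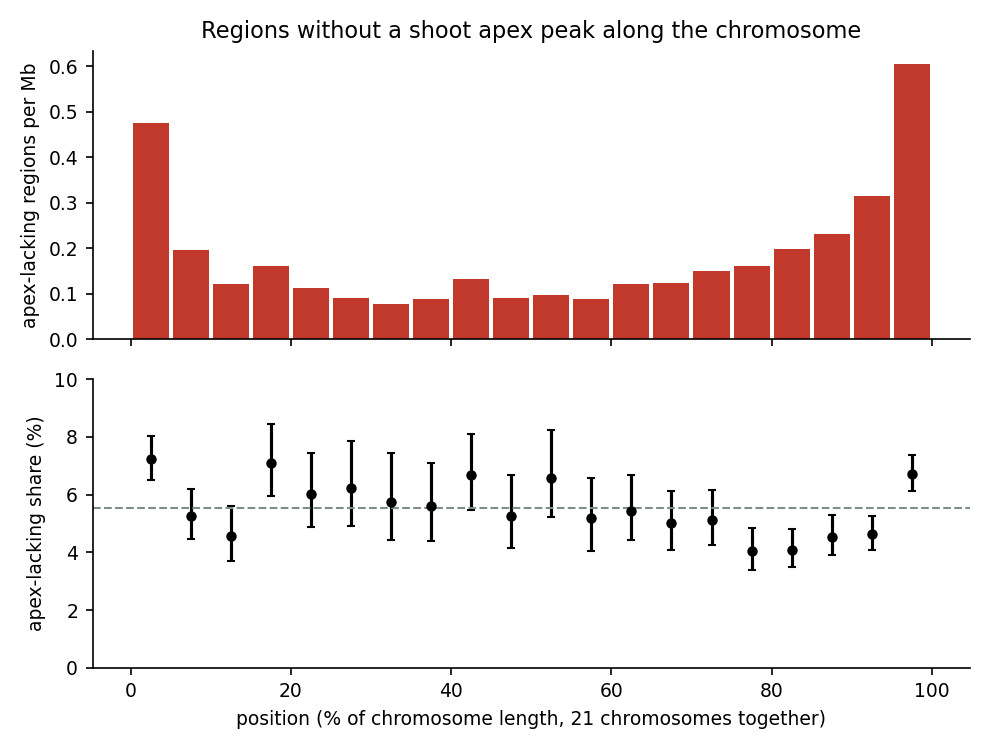
Apex-lacking regions along the chromosome in steps of 5% of its length, 21 chromosomes together. Upper panel, regions per Mb; lower panel, the apex-lacking share with 95% Wilson intervals and the overall share of 5.54% as a dashed line, highest in the first step (7.23%) and lowest from 75 to 80% (4.06%).

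The apex-lacking share varied at a finer scale along the chromosome. It was 7.23% (95% interval 6.52 to 8.02) in the first 5% of the length and 6.72% (6.13 to 7.37) in the last 5%. It was 4.06% (3.38 to 4.85) between 75 and 80% and 4.09% (3.48 to 4.81) between 80 and 85%. Between 15 and 20% of the length it was 7.10% (5.94 to 8.46). The outermost 2.5% at each end, a limit chosen after the data were seen, held 422 apex-lacking regions (16.5%), against 12.5% of regions of all 4 tissues. Averaged over chromosomes, it held 16.5% of apex-lacking regions, 23.7% of regions lacking leaf, 13.3% of regions lacking root and 6.74% of regions lacking bud. Apex-lacking minus leaf-lacking was -7.13 points there, negative in 7 of 7 groups (exact permutation p = 0.0156, adjusted p = 0.0195). There the apex-lacking share averaged 7.25 ± 0.809% (SD, n = 7 groups), against 5.31 ± 0.205% in the rest of the chromosome. The difference of 1.94 points was positive in 7 of 7 groups (exact permutation p = 0.0156, adjusted p = 0.0195), from 0.577 points in group 6 to 2.76 points in group 3. The limit was set on these same regions, so these p-values do not stand apart from that choice. The difference was 1.72 points without the 7 windows of at least 5 apex-lacking regions and 1.94 points as a mean over 5 width classes. Apex-lacking regions in the outermost 2.5% had a median width of 1031 bp, against 920.5 bp from 2.5 to 20% and 819 bp in the inner 60%. Their median gap to an apex peak was 3833 bp, against 4524 bp from 2.5 to 20% and 9902 bp in the inner 60%.

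By subgenome, 862 apex-lacking regions lay on D chromosomes (33.7%), 802 on A (31.3%) and 895 on B (35.0%). D made up 28.1% of the total length, A 35.1% and B 36.8%. D chromosomes therefore carried the most per length, with 0.218 ± 0.0267 per Mb (SD, n = 7 chromosomes), against 0.161 ± 0.0198 on A and 0.173 ± 0.0188 on B. D exceeded A by 0.0568 ± 0.0321 per Mb and B by 0.0457 ± 0.0357 per Mb, in 7 of 7 homoeologous groups each (exact sign-flip permutation p = 0.0156, adjusted p = 0.0469 over 6 subgenome tests). A minus B was -0.0111 ± 0.0315 per Mb and positive in 3 of 7 groups (exact permutation p = 0.406, adjusted p = 0.406). Regions of all 4 tissues were also most frequent per length on D, with 33.3% on D, 34.3% on A and 32.5% on B. Counted in regions, A held the fewest apex-lacking regions but the most regions of all 4 tissues, and B the reverse. Chromosome 1D had the highest density of apex-lacking regions (0.264 per Mb) and 6A the lowest (0.128 per Mb). Both D differences missed the threshold of 0.05 with lists cut to equal length (adjusted p = 0.0938, exact permutation, D higher in 6 of 7 groups). They also missed it where peaks of a tissue had to span 50% of the region (exact permutation, adjusted p = 0.0938 over A and 0.141 over B).

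Relative to regions with the same 3 tissues, the B chromosomes had the highest apex-lacking share, but no subgenome difference passed the test after adjustment. The share averaged 5.59 ± 0.244% on D, 5.08 ± 0.672% on A and 5.96 ± 0.266% on B (SD, n = 7 chromosomes). D minus B was -0.372 ± 0.285 points, negative in 6 of 7 groups (exact permutation p = 0.0312, adjusted p = 0.0625). A minus B was -0.875 ± 0.776 points, negative in 6 of 7 groups (exact permutation p = 0.0469, adjusted p = 0.0703). D minus A was 0.504 ± 0.770 points, positive in 4 of 7 groups (exact permutation p = 0.156, adjusted p = 0.188). Group 3 was the exception for both contrasts with B, with 5.77% on 3A, 5.71% on 3D and 5.54% on 3B, the lowest among B chromosomes. Why this group differed was not tested. Without group 3 both contrasts passed, at -0.461 points for D minus B and -1.06 points for A minus B (exact permutation, adjusted p = 0.0469 for both). These passes follow from leaving out the only group of opposite sign. The 6 groups left then gave the smallest exact permutation p they can give (0.0312), so nothing is concluded from them. Counting a tissue as present only if its peaks spanned 50% of the region turned both contrasts with B (D minus B 0.428 points, A minus B 0.36 points).

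**Figure D5:**
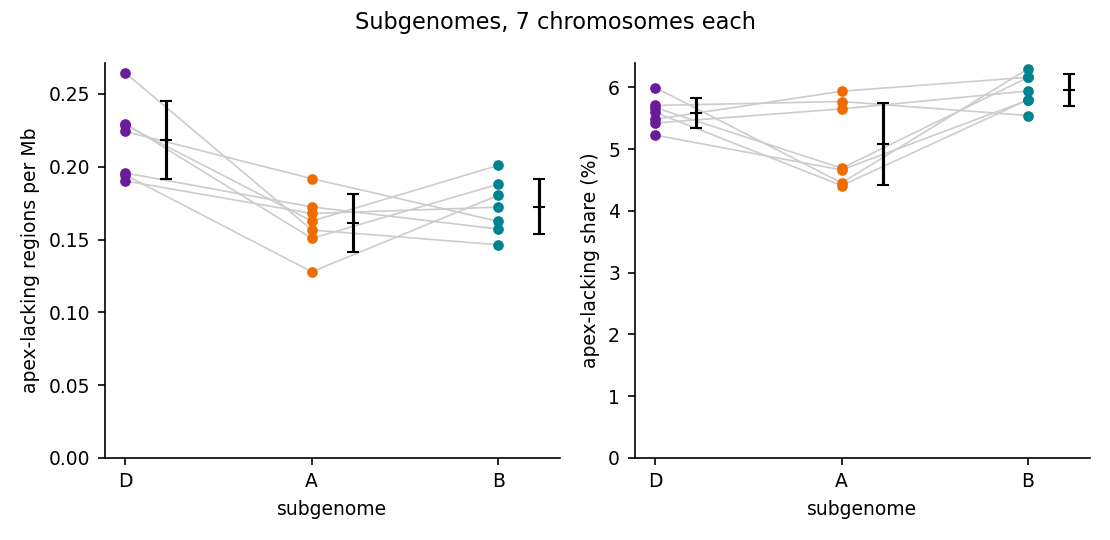
Apex-lacking regions per Mb (left) and the apex-lacking share in percent (right) on the chromosomes of the D, A and B subgenomes. Points are the 7 chromosomes, grey lines join a homoeologous group, and black bars are mean ± SD; D is densest in each group, and the share averages 5.59% on D, 5.08% on A and 5.96% on B.

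The A chromosomes varied most in the apex-lacking share. It was 4.41% on 5A, the lowest of all 21 chromosomes, 4.45% on 1A, 4.66% on 6A and 4.69% on 2A, against 5.65% on 7A, 5.77% on 3A and 5.94% on 4A. On D chromosomes it ran from 5.23% on 6D to 6.00% on 1D, and on B chromosomes from 5.54% on 3B to 6.30% on 1B, the highest of all. The counting intervals of single chromosomes were wide, at 3.66 to 5.30% for 5A and 5.21 to 7.60% for 1B. Median width was 925 bp on D, 872 bp on A and 876 bp on B chromosomes, and the median gap to an apex peak was 5209 bp on D, 6057 bp on A and 6458 bp on B.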

How the data were processed

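Per the submitters' processing notes, the tools were Trimmomatic 0.36 (read trimming), Bowtie2, MACS2 and bedtools. The sources used here do not give the peak threshold, the genome build or how the 2 libraries of a tissue were combined. The deposited lists hold only coordinates, with starts counted from 0. In each list, peaks had at least 201 bp and lay at least 201 bp apart. Peak widths were not a multiple of 25 bp for 10.7% of leaf, 4.26% of root, 17.9% of bud and 4.48% of apex peaks, and the cause of this difference was not tested.

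Peaks were merged with Python 3.11.15 and pandas 2.3.3, and touching peaks were kept apart. Chromosome length was taken as the last base of any peak. Position was read at a region's midpoint. Several peaks of a tissue in a region were summed. Tests were exact sign-flip permutations over 7 homoeologous groups, with intervals by the Wilson method. Merging and tests were checked on simulated lists. The regions, tests and alternatives were chosen with earlier results of these data known. Regions are named by a rule: the 5 widest, the 5 farthest from an apex peak, the 3 longest runs by position, the 3 windows with most, the 3 nearest to the border on each side, and the extreme chromosomes. Others were named after their values were seen.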

Additional observations from a re-analysis of the deposited data

How the results depend on the processing

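No paired analysis was possible because each tissue has 1 list without library values, and for the same reason no replicate could be left out. Depth is unknown and limits every comparison between tissues. Other settings moved the descriptive values as follows. With peaks of at least 507 bp there were 1483 apex-lacking regions, a share of 7.02%, a median width of 1294 bp and a median gap of 11025 bp. With gaps of up to 500 bp merged, width was 1050 bp and gap 7985 bp. With 50% of the region covered by each tissue the share was 12.1%, and the median gap was 0 bp because such regions may hold apex bases. With lists cut to equal length the share was 6.67% and the gap 6880 bp. With the apex required on 50% of the narrowest peak there were 5796 regions, a share of 12.5%. The outer 10% held 43.7% of the regions, against 39.5% of regions of all 4 tissues. Without the outermost 2.5% the share was 5.30%. Every setting with the outermost 2.5% was chosen after seeing the data.

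Several differences below the test threshold changed sign. With peaks of at least 507 bp, A minus B was 8.96e-05 per Mb, apex-lacking minus all 4 tissues -0.288 points in the outer 20%, and outer minus inner -0.0506 points. With 50% covered, A minus B was 0.0173 per Mb, and in share D minus B was 0.428 and A minus B 0.36 points. Apex-lacking minus root-lacking was 2.12 points in the outer 10% and 3.18 points in the outermost 2.5%, where it passed (adjusted p = 0.0312, exact permutation). Without the outermost 2.5%, apex-lacking minus all 4 tissues was -0.893 points and outer minus inner -0.189 points. In the outermost 2.5% these last 2 were 3.93 and 1.94 points and passed (adjusted p = 0.0195, exact permutation); 1.72 points without the 7 densest windows and 1.94 points over width classes also passed. The D excess per Mb missed the threshold with 50% covered (0.0253 over A, 0.0426 over B) and with equal lists (0.0521 and 0.0405). In share, D minus B passed with gaps merged (-0.515 points), and over 5 width classes D minus A (0.718) and A minus B (-0.874) passed. The cause of these changes was not tested. Some values moved without passing: apex-lacking minus all 4 tissues was 4.08 points and outer minus inner 0.888 points in the outer 10%, and 2.90 and 1.29 points with 50% covered (adjusted p = 0.0781 for each, exact permutation). Under the settings named here, the other tested differences kept their direction and side of the threshold.

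Leaving out each homoeologous group in turn gave 0.0482 to 0.0625 for D minus A and 0.0336 to 0.0510 for D minus B per Mb, and -0.0178 to -0.00419 for A minus B. In share it gave 0.330 to 0.663 for D minus A, -0.461 to -0.320 for D minus B and -1.06 to -0.713 for A minus B, the extremes of both B contrasts without group 3, where they passed (adjusted p = 0.0469, exact permutation). Group 3 was the only group of opposite sign for both B contrasts, so these passes follow from leaving it out. For distal shares it gave -14.8 to -13.4 points against leaf-lacking, 13.7 to 16.1 against bud-lacking, -2.30 to 0.326 against root-lacking (positive without group 4) and 0.0938 to 1.81 against all 4 tissues. Outer minus inner ranged from -0.00178, without group 3, to 0.390. With 6 groups the smallest exact p is 0.0312, so the loss of both distal calls (adjusted p = 0.0781) and, except without group 3, of both D calls (adjusted p = 0.0938, exact permutation) follows from the number of groups.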
